A study of Mus musculus with 6 samples.

Results

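Glycolysis is the cytosolic pathway that splits glucose into pyruvate, and lactate dehydrogenase turns pyruvate into lactate when mitochondria do not take it up. The hypoxia-inducible factors (HIF) are pairs of an oxygen-regulated alpha subunit and the stable partner ARNT. Prolyl hydroxylases of the EGLN family mark the alpha subunits for destruction when oxygen is present, and in low oxygen the surviving alpha subunits raise transcription of glucose transporters, most glycolytic enzymes, the angiogenic ligand Vegfa and mitochondrial regulators such as Bnip3. Embryonic mesenchyme grows while its vessels are still forming, and cartilage precursors are known for strong glycolysis.

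The 33 genes described here were taken by symbol, 21 from glucose uptake and glycolysis and 12 from the HIF system and its targets, of 23366 genes in the count files. All 33 were listed and 32 had enough counts to be tested. The RNA came from palatal shelves of mouse embryos at E14.25, as 3 wild type libraries (replicates 2, 3 and 4) and 3 knockout libraries (replicates 1, 2 and 3) with the genotype Kmt2dfl/fl Wnt1-Cre. Wnt1-Cre recombines floxed alleles in the neural crest lineage, so epithelium, endothelium and blood cells of the same shelves keep Kmt2d, a histone methyltransferase. The labels call the libraries of a group biological replicates of paired shelves. They do not say whether a library is 1 embryo or a pool, or whether the wild type embryos carried Cre or floxed alleles.

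Gene counts ranged from 20785074 to 24916079 pairs in the wild type and from 12721979 to 20203309 in the knockout. Knockout replicate 2 stood apart, with 47.5% of its pairs assigned to no counted feature, where the other 5 libraries had 12.3% to 18.1%. Pairs in introns can fall in this category if exons were the features counted. Fits were therefore made with 6 libraries and with 5, without knockout replicate 2. Knockout replicates 1 and 3, kept in both fits, also differed from the wild type. The abundant feature Rn45s took 35.1% and 30% of their gene counts. It took 16.2% to 20.7% in the wild type and 18.6% in knockout replicate 2. Pairs that were not unique made up 30.3% and 27.7%, against 18.4% to 21% and 18.1%. With 5 libraries these differences cannot be told apart from genotype. Kmt2d itself, listed as Mll2, stood at 197, 211 and 171 CPM (gene counts scaled to the size of each library, with trimmed means) in the wild type and 254, 539 and 193 CPM in the knockout. A count over the whole gene does not check a deletion of part of it. All 10 palatal mesenchyme markers were detected in every library, with summed levels of 1450 to 1490 CPM in the wild type and 1610 to 1870 CPM in the knockout. Prrx1, the most abundant of them, had means of 591 and 801 CPM, while 5 of the 10 had negative log2 fold changes with 6 libraries and Prrx2 fell with 5 (adjusted p = 0.0103).

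No member passed the threshold with 6 libraries, and 1 passed with 5: Aldoc, the brain-type aldolase, fell. The threshold was an adjusted p of 0.05 over all genes in edgeR's quasi-likelihood test. It was passed by 0.534% of the 14233 genes tested with 6 libraries (0.0984% higher, 0.436% lower) and by 2.12% of the 14450 tested with 5 (0.554% higher, 1.57% lower). At an unadjusted p under 0.05, 4 members were higher and 1 was lower with 6 libraries, against 7.51% of all genes higher and 6.69% lower. With 5 libraries 7 were higher and 1 was lower, against 7.22% of all genes higher and 9.27% lower. The median member log2 fold change, knockout over wild type, was -0.037 with 6 libraries, beside 0.011 for all genes, and 0.12 with 5 libraries, beside 0.016.

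Lack of a call leaves a range of possible differences, and for most members that range was small once knockout replicate 2 was set aside. The 95% interval of the fold change lay within 1.5-fold in either direction for 17 of 32 members with 6 libraries and for 22 of 32 with 5. Hif1a, the main alpha subunit, had an interval of -0.28 to 0.26 on the log2 scale with 6 libraries, and Ldha, the subunit that favours lactate formation, one of -0.19 to 0.15 with 5. The fold change took opposite signs in the 2 fits for 12 of 32 members, among them Gapdh, Pgk1, Tpi1, Slc2a1 and Mif, so no direction can be given for them.

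**Figure D1:**
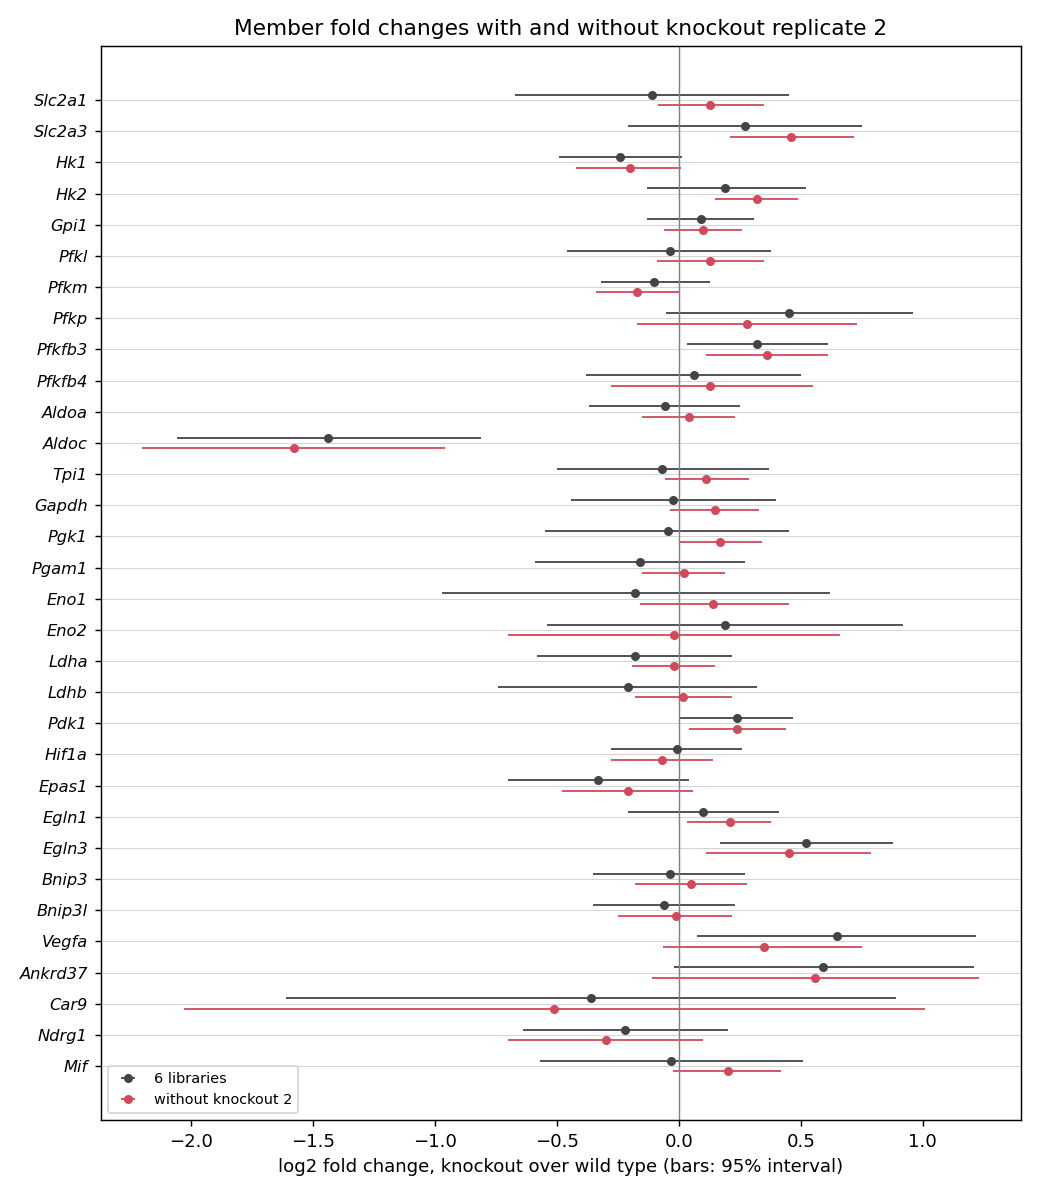
Log2 fold changes of the 32 tested members, knockout over wild type, with 95% intervals from the fitted model, in black for 6 libraries and in red without knockout replicate 2. Aldoc lies apart at -1.44 and -1.58, and most red intervals are shorter than the black ones beside them.

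Several of these enzymes have processed pseudogenes with near-identical sequence, and each read of a pair was 25 bases long. Pairs that aligned to more than 1 place stand in a category of their own in the files and are not in the gene counts. Of all 25-base words in the longest protein-coding transcript, 88.8% were also present in transcripts of other genes for Mif, 84.9% for Gapdh, 78.8% for Eno1, 78.7% for Bnip3 and 68.4% for Pgk1 in the GENCODE M21 transcripts. Eno1 shared 77.1% of its words with Eno1b, a retrocopy, and was counted at only 15.1, 17.5 and 16.1 CPM in the wild type. Altogether 12 members shared over 25% of their words, and their levels are uncertain. For 16 members the share was under 5%. These include Slc2a1, Slc2a3, Hk1, Hk2, Aldoc, Pdk1, Epas1, Egln1, Egln3 and Vegfa, the genes on which most of the comparisons here turn.

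Promoters of the set can be shown for 29 of the 33 members, from RefSeq windows of 300 bases (250 before and 50 after each annotated start, build GRCm38.p6, while the counts were made on mm9). HIF dimers bind a short core, of which the form ACGTG was searched on both strands, so that the palindrome CACGTG counts as 2 overlapping matches. At least 1 window held ACGTG in 19 of the 29 members (65.5%), against 21.8% of 27025 genes. Members' windows were also rich in CG dinucleotides, with a median of 16.5 against 7 over all windows. Among windows with at least 15 CG, ACGTG was present in 57.7% of 26 member windows and in 28.4% of all such windows. The members were chosen as glycolysis genes and HIF targets, so a higher share of the HIF core is built into the list. Members also had more windows, 42 for 29 genes against 32851 for 27025. Windows of a gene can overlap and hold the same match, as for Aldoa, so they are not independent. The 5 windows below are shown for the member that fell (Aldoc), for the members with a window whose share among paralogues did not overlap between the groups (Aldoc again, Hk2, Egln3 and Pfkp), and for Ldha, which had the most matches among them; capitals mark ACGTG or its complement CACGT.

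Aldoc, chr11:78322823-78323122, plus strand: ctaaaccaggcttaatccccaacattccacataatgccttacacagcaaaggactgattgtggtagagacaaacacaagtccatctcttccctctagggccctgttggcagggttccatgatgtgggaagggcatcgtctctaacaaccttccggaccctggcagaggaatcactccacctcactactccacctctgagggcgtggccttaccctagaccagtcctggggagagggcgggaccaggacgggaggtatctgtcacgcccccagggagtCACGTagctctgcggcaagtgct

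Hk2, chr6:82774405-82774704, minus strand: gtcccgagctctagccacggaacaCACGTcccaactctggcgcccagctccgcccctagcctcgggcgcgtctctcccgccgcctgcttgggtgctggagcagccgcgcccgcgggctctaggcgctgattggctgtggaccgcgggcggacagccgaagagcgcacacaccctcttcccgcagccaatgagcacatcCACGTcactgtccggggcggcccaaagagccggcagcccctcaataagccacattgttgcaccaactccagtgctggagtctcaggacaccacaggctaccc

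Egln3, chr12:54203825-54204124, minus strand: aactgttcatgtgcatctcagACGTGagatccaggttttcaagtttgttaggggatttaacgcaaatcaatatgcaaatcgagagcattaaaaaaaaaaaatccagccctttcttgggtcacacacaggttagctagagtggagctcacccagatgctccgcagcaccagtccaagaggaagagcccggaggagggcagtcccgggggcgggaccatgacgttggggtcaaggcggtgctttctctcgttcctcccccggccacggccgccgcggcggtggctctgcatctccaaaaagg

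Ldha, chr7:46845554-46845853, plus strand: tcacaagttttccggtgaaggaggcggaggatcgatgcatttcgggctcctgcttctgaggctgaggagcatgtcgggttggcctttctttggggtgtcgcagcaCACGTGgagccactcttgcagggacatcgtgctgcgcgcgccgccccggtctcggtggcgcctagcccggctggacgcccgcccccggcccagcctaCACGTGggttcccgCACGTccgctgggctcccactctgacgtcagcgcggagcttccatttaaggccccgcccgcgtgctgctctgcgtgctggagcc

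Pfkp, chr13:6648722-6649021, minus strand: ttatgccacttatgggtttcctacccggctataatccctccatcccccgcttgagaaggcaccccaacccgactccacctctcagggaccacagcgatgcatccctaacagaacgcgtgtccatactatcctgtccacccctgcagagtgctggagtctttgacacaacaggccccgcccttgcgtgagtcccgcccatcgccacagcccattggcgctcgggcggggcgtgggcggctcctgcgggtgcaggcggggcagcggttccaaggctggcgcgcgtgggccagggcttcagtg

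Ldha had 5 matches in 3 places, Hk2 had 2, Aldoc and Egln3 had 1 each, and Pfkp had 0. Other forms of the core were not searched, so 0 matches does not show that a window lacks the core. Aldoc and Ldha have 2 windows each in the table, of which the one with a match is shown; the other of each holds no ACGTG. The Aldoc match lies after the annotated start. Matches are letters in a window and do not show that a factor binds there. Ldha and Aldoc, which both hold the letters, had log2 fold changes of -0.02 and -1.58 with 5 libraries.

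For the glucose transporters the groups overlapped in level but not in proportion. Slc2a1 (GLUT1), the widespread basal transporter, stood at 61.1, 64.3 and 73.3 CPM in the wild type (replicates in the order 2, 3, 4, here and in what follows) and at 76.1, 38.2 and 69.7 CPM in the knockout (order 1, 2, 3). Slc2a3 (GLUT3), a transporter of higher glucose affinity, stood at 31.0, 40.5 and 35.5 CPM in the wild type and at 49.5, 30.3 and 49.4 CPM in the knockout. Knockout replicate 2 was the lowest library for both genes. Slc2a3 differed by 0.27 on the log2 scale (SE 0.21, adjusted p = 0.545) with 6 libraries and by 0.46 (SE 0.11, adjusted p = 0.0771) with 5, where DESeq2 passed it (adjusted p = 0.0279). The difference of Slc2a1 was -0.11 (adjusted p = 0.851) and 0.13 (adjusted p = 0.561).

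Comparing paralogues inside a library removes the library's scaling. Lengths were those of all annotated exons of a gene merged, so the level of a share depends on this choice. Per kilobase of exon, Slc2a3 made up 19.7%, 23.4% and 19% of the transporter signal in the wild type. In the knockout it made up 24.0%, 27.8% and 25.5%. All 3 knockout libraries, replicate 2 included, lay above all 3 wild type libraries. The means were 20.7% ± 2.34 and 25.7% ± 1.91 (SD, n = 3 each), and the two-sided exact permutation test gave p = 0.1, the smallest value that 3 against 3 libraries allow. Adjusted over the 11 paralogue shares computed, p was 0.22, so none of the shares could pass a threshold of 0.05.

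Hexokinases trap glucose in the cell by phosphorylating it. Hk1, the constitutive form bound to mitochondria, stood at 52.8, 49.4 and 49.5 CPM in the wild type and at 47.5, 40.4 and 40.9 CPM in the knockout. Hk2, the form induced by insulin and hypoxia, stood at 50.9, 50.1 and 50.8 CPM in the wild type and at 65.1, 46.5 and 62.1 CPM in the knockout. Hk1 was lower in each knockout library than in each wild type library, whereas Hk2 was higher in knockout replicates 1 and 3 and lower in replicate 2.

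Neither hexokinase passed the test. The log2 fold change of Hk1 was -0.24 (SE 0.11, adjusted p = 0.367) with 6 libraries and -0.20 (adjusted p = 0.322) with 5. That of Hk2 was 0.19 (SE 0.14, adjusted p = 0.529) with 6 and 0.32 (SE 0.077, adjusted p = 0.0721) with 5, and it passed with 5 libraries in DESeq2 (adjusted p = 0.0328). Within each library, Hk2 held 58.0%, 59.2% and 59.5% of the hexokinase signal per kilobase in wild type shelves and 66.2%, 62.2% and 68.4% in knockout shelves, again without overlap (58.9% ± 0.802 and 65.6% ± 3.17, SD, n = 3 each; two-sided exact permutation test, p = 0.1, adjusted p = 0.22). The merged exon length was 8.532 kb for Hk1 and 5.969 kb for Hk2, while their longest protein-coding transcripts have 4278 and 5513 bases. Which hexokinase holds the larger share therefore depends on the length used. Gpi1, the isomerase of the next step, ranged from 148 to 161 CPM in the wild type and from 158 to 169 CPM in the knockout.

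Phosphofructokinase commits sugar to glycolysis, as a tetramer of liver (Pfkl), muscle (Pfkm) and platelet (Pfkp) subunits. Pfkp, the member of the 3 with the smallest p with 6 libraries, stood at 6.94, 8.25 and 5.73 CPM in the wild type and at 9.05, 11.7 and 8.01 CPM in the knockout. The difference, 0.45 on the log2 scale (SE 0.22), gave an adjusted p = 0.382, and with 5 libraries it was 0.28 (adjusted p = 0.545). The groups overlapped in level but not in the within-library share of Pfkp, which was 1.71% ± 0.329 in the wild type and 2.46% ± 0.629 in the knockout (SD, n = 3 each; two-sided exact permutation test, p = 0.1, adjusted p = 0.22). Without knockout replicate 2 the difference in that share went from 0.752 to 0.389 percentage points. The merged exons of Pfkp span 13.4 kb and its longest protein-coding transcript 4145 bases, so the level of its share is uncertain. Pfkl and Pfkm had log2 fold changes of -0.037 and -0.10 with 6 libraries and of 0.13 and -0.17 with 5, none past the threshold. With 5 libraries Pfkm had the smallest p of the 3 (adjusted p = 0.316), at 54.5, 54.3 and 55.0 CPM in the wild type and 48.9 CPM in both remaining knockout libraries.

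The PFKFB enzymes make and break the sugar bisphosphate that activates phosphofructokinase. Pfkfb3, the form with the strongest kinase activity, stood at 22.8, 24.5 and 20.9 CPM in the wild type and at 27.3, 26.5 and 31.3 CPM in the knockout. Each knockout library was above each wild type library, yet the log2 fold change of 0.32 (SE 0.12) gave an adjusted p = 0.327, and 0.36 gave 0.154 with 5 libraries. Pfkfb4, a hypoxia-inducible relative, ranged from 8.01 to 10.1 CPM in the wild type and from 8.02 to 10.8 CPM in the knockout. Such separation of the groups, in either direction, was seen for 4 members higher and 3 lower with 6 libraries, beside 12.3% and 11.2% of all genes (23.5% in either direction), a share near the background. With 5 libraries 11 were higher and 4 lower, beside 17.2% and 16.6% of all genes (33.8% in either direction).

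Most enzymes of the lower pathway were low in 1 library. In knockout replicate 2, Aldoa, Tpi1, Gapdh, Pgk1, Pgam1, Ldha and Ldhb stood at 55.7% to 81.0% of their wild type means. In knockout replicates 1 and 3 the same 7 genes stood at 95.8% to 116% and at 94.9% to 116%. Eno1 stood at 42.0% in knockout replicate 2, whereas Eno2 was highest there, at 143% of its wild type mean, and lowest in knockout replicate 3, at 68.4%. Gapdh, the dehydrogenase often used as a reference gene, shows the pattern at 489, 515 and 562 CPM in the wild type and 557, 379 and 605 CPM in the knockout. Ldha stood at 303, 324 and 337 CPM in the wild type and at 328, 212 and 310 CPM in the knockout. A fold change over all 6 libraries of these genes averages knockout libraries near the wild type with 1 well below it.

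Across the whole set, knockout replicate 2 was the lowest library for 18 of 32 members (56.2%), against 36.3% of all genes tested. It was the highest library for 5 members, against 34.7% of all genes. The median member of the glycolysis group stood at 79.9% of its wild type mean in that library, at 115% in knockout replicate 1 and at 105% in knockout replicate 3. For the HIF and hypoxia group the medians were 94.4%, 109% and 102%, and for all genes tested 98.2%, 101% and 102%. Knockout replicate 2 lay under 75% of the wild type mean for 8 of the 12 members with many shared 25-base words and for 4 of the other 20. The share of all genes under 75% was not counted. The same library had the highest summed skeletal muscle markers, 1500 CPM against 231 to 567 CPM in the other 5. Of the 1500 CPM, the myosins Myh3 and Myh8 took 804 and 223 CPM. It had the lowest epithelial markers, 286 CPM against 493 to 696 CPM. Its sums were also the lowest for erythroid, endothelial, chondrocyte and macrophage markers. They were the highest for osteoblast, neuron and glia, and palatal mesenchyme markers. The part of these differences in the low enzyme levels was not tested.

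**Figure D2:**
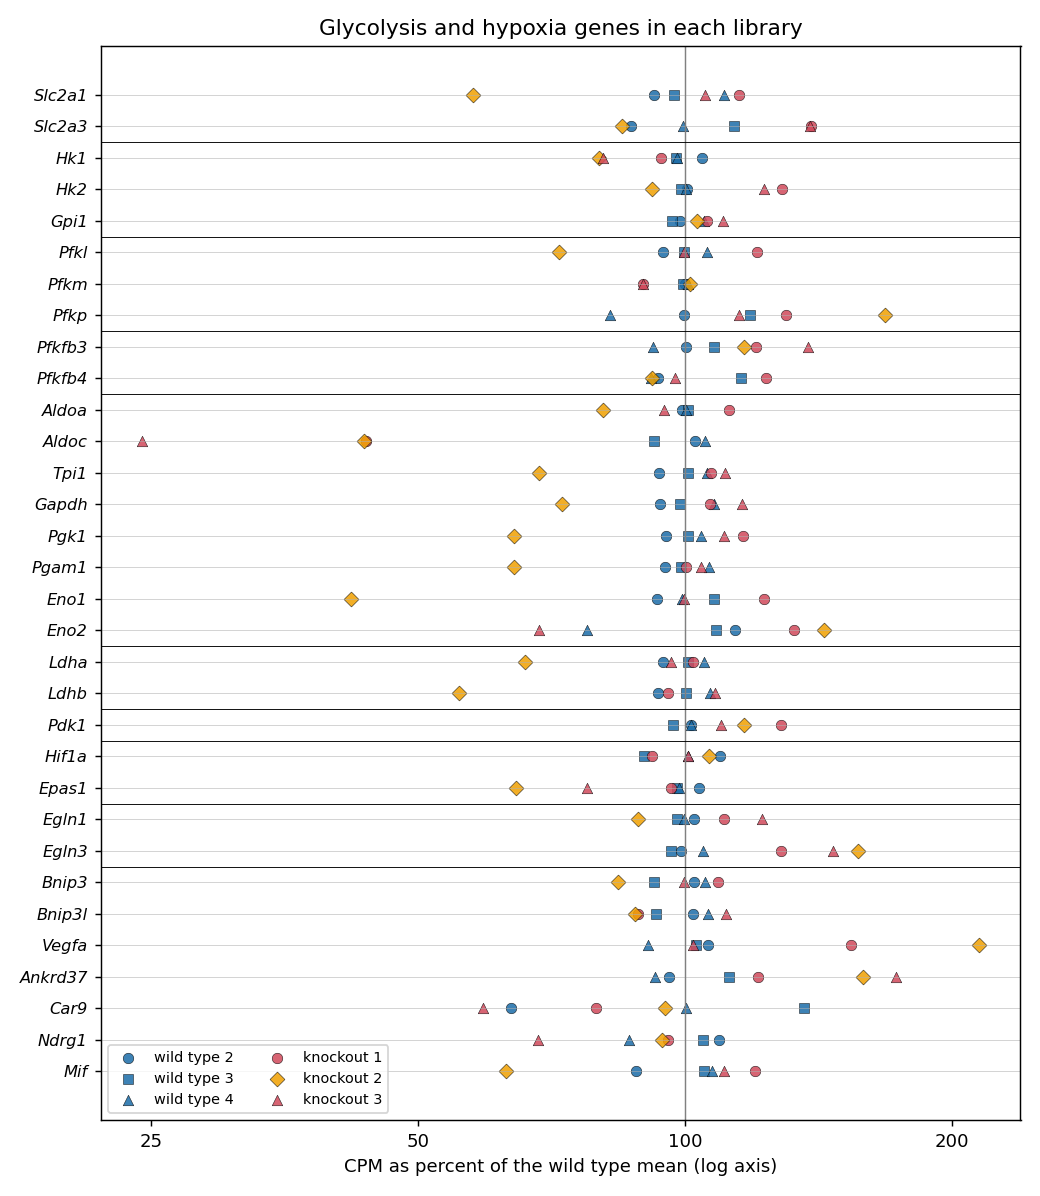
CPM of each tested member in each library as a percent of its wild type mean, on a log axis, with lines between functional groups (blue, wild type; red, knockout replicates 1 and 3; orange diamonds, knockout replicate 2). Orange diamonds lie to the left for most lower glycolysis enzymes and to the right for Pfkp, Eno2, Egln3, Vegfa and Ankrd37.

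Aldoc was low in all 3 knockout libraries. Aldoc, the aldolase best known from neural tissue, stood at 6.98, 6.27 and 7.15 CPM in the wild type and at 2.97, 2.95 and 1.66 CPM in the knockout, with 196, 140 and 166 against 47, 39 and 30 counts. The groups were well apart and knockout replicate 2 sat beside replicate 1. The log2 fold change was -1.44 (SE 0.27, adjusted p = 0.0859) with 6 libraries and -1.58 (SE 0.27, adjusted p = 0.0193) with 5, a 2.99-fold lower level. With 5 libraries 1.57% of all genes were called lower.

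The call on Aldoc depended on the fit. With 6 libraries it passed in DESeq2 (adjusted p = 0.000395), with sample quality weights and with the replicate number as a block. With 5 libraries it was lost without any 1 of the wild type replicates or without knockout replicate 3, at adjusted p = 0.0543 to 0.0744, and with sample quality weights (adjusted p = 0.0676). Its fold change stayed between -2.05 and -1.20 on the log2 scale in all of these fits. The widespread aldolase Aldoa, with 199, 202 and 201 CPM in the wild type and 225, 162 and 190 CPM in the knockout, had a log2 fold change of -0.058 (adjusted p = 0.858) with 6 libraries and of 0.042 (adjusted p = 0.860) with 5. Aldoc accordingly made up 3.83%, 3.41% and 3.89% of the aldolase signal per kilobase in the wild type and 1.48%, 2.02% and 0.98% in knockout libraries, without overlap (p = 0.1 by the exact permutation test, adjusted p = 0.22). Of the 25-base words of Aldoa 43.9% occur in other transcripts, so the level of this share is uncertain.

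Markers of other cell types were read beside Aldoc. The 10 neuron and glia markers summed to 138 to 219 CPM in the wild type and 121 to 254 CPM in the knockout, with overlap, and none of the 10 was at 0 in any library. The 8 chondrocyte markers summed to 414 to 1430 CPM in the wild type and 152 to 356 CPM in the knockout. The 1430 CPM was wild type replicate 2 alone, with replicates 3 and 4 at 485 and 414 CPM. Epithelial (582 to 696 against 286 to 525 CPM), endothelial (281 to 310 against 217 to 253 CPM) and macrophage marker sums (56.1 to 63.5 against 36.6 to 43.9 CPM) were also lower in the knockout without overlap. No marker of these 4 lists was at 0 in any library. Taken singly with 6 libraries, 5 chondrocyte, 5 epithelial, 6 endothelial and 4 macrophage markers of 8 each were lower without overlap. The share over all genes was 11.2%. Cd68, a macrophage marker, had the only positive log2 fold change of the 4 lists (0.85), and Trp63, an epithelial marker, stood at -0.034. In whole tissue, fewer cells of a type and less RNA per cell cannot be told apart, and the part of these markers in the fall of Aldoc was not tested.

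Enolase and lactate dehydrogenase gave no separation of the groups. Eno2, the neuronal enolase, ranged from 4.26 to 6.26 CPM in the wild type and from 3.76 to 7.87 CPM in the knockout. Ldhb, the subunit that favours use of lactate, held 35.0%, 35.2% and 35.6% of the lactate dehydrogenase signal per kilobase in the wild type and 33.8%, 31.5% and 37.9% in knockout libraries, on both sides of the wild type. Pdk1, the HIF-induced kinase that inhibits pyruvate dehydrogenase, stood at 60.0, 57.3 and 60.0 CPM in the wild type and at 75.7, 68.9 and 64.8 CPM in the knockout. Its groups did not overlap, with a difference of 0.24 on the log2 scale (SE 0.10, adjusted p = 0.343) with 6 libraries and an adjusted p = 0.223 with 5.

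**Figure D3:**
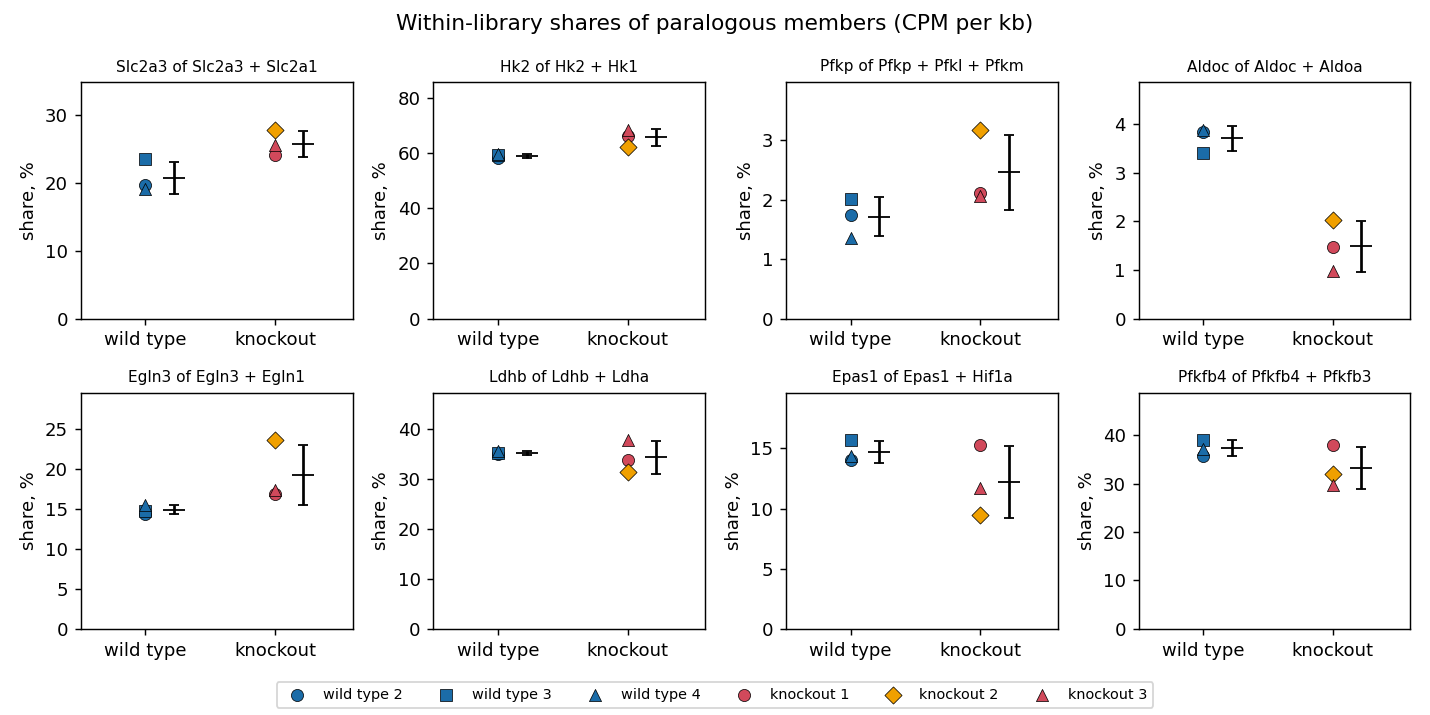
Share of 1 paralogue in the summed CPM per kilobase of its family in each library (points), with mean and SD of 3 libraries beside them, each axis from 0. Slc2a3, Hk2, Pfkp and Egln3 shares lie higher and the Aldoc share lower in every knockout library, while Ldhb, Epas1 and Pfkfb4 shares overlap.

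Of the HIF alpha subunits, Hif1a ranged from 143 to 174 CPM in the wild type and from 146 to 169 CPM in the knockout. Epas1, the HIF-2 alpha subunit prominent in endothelium, stood at 26.9, 25.4 and 25.5 CPM in the wild type and at 25.0, 16.7 and 20.1 CPM in the knockout, below the wild type in all 3. Its log2 fold change was -0.33 (SE 0.16, adjusted p = 0.384) with 6 libraries and -0.21 (adjusted p = 0.431) with 5. The 8 endothelial markers had log2 fold changes from -0.53 to -0.13, all negative, of which 0 passed the threshold. Their part in the values of Epas1 was not tested.

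The oxygen-sensing hydroxylases are themselves HIF targets. Egln3 stood at 8.08, 7.89 and 8.57 CPM in the wild type and at 10.5, 12.8 and 12 CPM in the knockout, clear of each other, with differences of 0.52 (SE 0.15, adjusted p = 0.238) and, on the same log2 scale, of 0.45 (adjusted p = 0.182) with 5 libraries. Egln1, the main hydroxylase in normal oxygen, stood at 64.8, 62.0 and 63.1 CPM in the wild type and at 70.1, 56.0 and 77.2 CPM in the knockout (adjusted p = 0.737, and 0.223 with 5 libraries). Per kilobase, Egln3 held 14.9% ± 0.565 of their summed signal in the wild type and 19.2% ± 3.76 in the knockout (SD, n = 3 each; two-sided exact permutation test, p = 0.1, adjusted p = 0.22). Knockout replicate 2 held the highest share, 23.6%, and replicates 1 and 3 stood at 16.8% and 17.3%. Without replicate 2 the difference went from 4.39 to 2.22 percentage points.

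The HIF targets outside metabolism did not move together. Vegfa, the vascular growth factor, stood at 55.5, 53.7 and 47.5 CPM in the wild type and at 80.4, 112 and 53.3 CPM in the knockout, where replicate 3 lay inside the wild type range. Its log2 fold change was 0.65 (SE 0.24, adjusted p = 0.323) with 6 libraries and 0.35 (adjusted p = 0.384) with 5. It was 0.62 with knockout replicate 1 as the only knockout library and 0.01 with knockout replicate 3 as the only one. Ankrd37, an ankyrin repeat protein induced by HIF, stood at 1.96, 2.29 and 1.89 CPM in the wild type and at 2.47, 3.25 and 3.54 CPM in the knockout, with no overlap (log2 fold change 0.59, SE 0.26, adjusted p = 0.359 with 6 libraries, and 0.56, adjusted p = 0.400 with 5). Car9, a carbonic anhydrase that is among the most strongly hypoxia-induced genes, was near the limit of detection with 6 to 17 counts a library. Adm, the vasodilator adrenomedullin, had 20, 4 and 8 counts in the wild type and 1, 0 and 7 counts in knockout libraries, too few to test.

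Bnip3 and Bnip3l, mitophagy receptors, had log2 fold changes of -0.037 and -0.06 with 6 libraries (adjusted p = 0.914 and 0.843) and of 0.05 and -0.012 with 5 (adjusted p = 0.866 and 0.971). Ndrg1, a stress-response gene, ranged from 13.3 to 16.8 CPM in the wild type and from 10.5 to 14.7 CPM in the knockout, and the cytokine Mif from 72.4 to 88.2 CPM and from 51.6 to 98.6 CPM. All 33 members together took 0.407%, 0.417% and 0.435% of gene counts in wild type libraries, leaving out the abundant features Rn45s and Lars2. The knockout values were 0.449%, 0.317% and 0.437%, lower in replicate 2 alone (p = 1, exact permutation test, two-sided).

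Beyond the 33 genes, 2 further lists of the same pathways were read. Of 34 other glycolysis and pyruvate genes 26 were tested with 6 libraries and 27 with 5, and 0 passed in either fit (edgeR). At an unadjusted p under 0.05, 1 of the 26 was higher and 1 lower with 6 libraries, and 2 of the 27 were higher and 2 lower with 5. Hkdc1 passed in DESeq2 with 5 libraries (adjusted p = 0.0341) and in voom with quality weights with 6 (adjusted p = 0.048). Hkdc1, a hexokinase relative of epithelia, had the smallest p, at 1.39, 0.717 and 0.818 CPM in the wild type and 0.0633, 0.303 and 0.110 CPM in the knockout (log2 fold change -2.67, adjusted p = 0.165 with 6 libraries, and -3.42, adjusted p = 0.0653 with 5). These levels rest on 39, 16 and 19 counts against 1, 4 and 2. The summed epithelial markers given above were also lower in the knockout, and their part in the values of Hkdc1 was not tested. Slc2a4 (GLUT4), the insulin-regulated transporter, had a log2 fold change of 0.46 (adjusted p = 0.304) with 6 libraries and of 0.39 (adjusted p = 0.258) with 5. The pyruvate kinase Pkm, also an enzyme with high counts, stood at 646, 717 and 750 CPM in the wild type and at 735, 494 and 769 CPM in the knockout, again low in replicate 2.

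Of 36 other HIF pathway genes, 0 rose and 1 fell with 6 libraries, and 1 rose and 3 fell with 5. Over all genes, 0.0984% rose and 0.436% fell with 6 libraries, and 0.554% rose and 1.57% fell with 5. Hif3a, an alpha subunit whose short forms restrain the others, fell from 77.4, 74.7 and 75.3 CPM in the wild type to 48.0, 45.9 and 42.6 CPM in the knockout. Knockout replicate 2 lay between the other 2 knockout libraries. The log2 fold change was -0.74 (SE 0.10, adjusted p = 0.0325) with 6 libraries and -0.75 (SE 0.085, adjusted p = 0.00294) with 5. With 6 libraries Hif3a lost its call when any library other than knockout replicate 2 was left out (adjusted p = 0.0668 to 0.219).

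Angptl4, a secreted inhibitor of lipoprotein lipase induced by hypoxia and fasting, stood at 12.8, 14.7 and 13.1 CPM in the wild type and at 3.54, 1.44 and 4.36 CPM in the knockout. It fell with 5 libraries, 3.42-fold (adjusted p = 0.00152), and differed by -2.09 on the log2 scale (SE 0.34, adjusted p = 0.0601) with 6. With 6 libraries it passed without a filter (adjusted p = 0.0288), without Rn45s and Lars2 (0.0475), in DESeq2 (9.77e-07), with quality weights (0.00567) and with the replicate block (1.3e-06). It did not pass with median-of-ratios (0.0578) or upper quartile scaling (0.0579), a filter of 1 CPM in 3 libraries (0.0681) or plain voom (0.0506). Nor did it pass when any library other than knockout replicate 2 was left out (0.0954 to 0.279). Plod1, a lysyl hydroxylase of collagen, stood at 56.0, 49.5 and 57.9 CPM in the wild type and at 37.7, 28.5 and 36.7 CPM in the knockout, and fell with 5 libraries (log2 fold change -0.56, adjusted p = 0.0176). Cited2, a transcriptional regulator that competes with HIF alpha subunits for their coactivators, stood at 31.9, 30.2 and 34.3 CPM in the wild type and at 45.7, 39.5 and 45.2 CPM in the knockout, and rose with 5 libraries (log2 fold change 0.49, adjusted p = 0.0261). With 6 libraries Plod1 and Cited2 had adjusted p = 0.117 and 0.194, but passed in DESeq2 (0.00164 and 0.0318) and with quality weights (0.0328 and 0.0259). With 5 libraries Plod1 lost its call when wild type replicate 2, wild type replicate 4 or knockout replicate 3 was left out (adjusted p = 0.0562 to 0.0658) and Cited2 without any further library (0.0579 to 0.125). In all 4 genes the 3 knockout libraries lay on 1 side of the wild type, as for 23.5% of all genes. The lower sums of chondrocyte, epithelial, endothelial and macrophage markers lie beside these falls too, and their part was not tested.

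**Figure D4:**
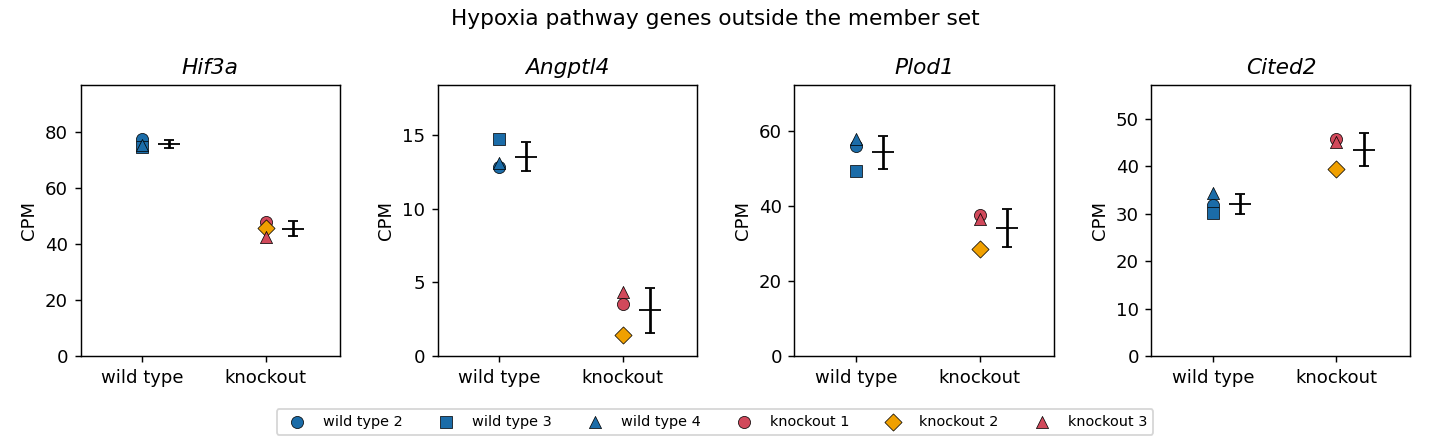
CPM of 4 further hypoxia pathway genes in each library (points), with mean and SD of 3 libraries beside them, each axis from 0. Hif3a, Angptl4 and Plod1 lie lower and Cited2 higher in every knockout library, with Hif3a between 42.6 and 48.0 CPM in the knockout.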

How the data were processed

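Each deposited file lists one library's read pair counts by gene symbol, as whole numbers that the authors had not normalized. The submitters' processing notes name TopHat2, SAMtools, HTSeq and mm9 and give no versions. Neither annotation nor strand setting is given in the sources used here. All 5 lines of categories without a gene were set aside before any total was taken. Pairs assigned to no feature made up 12.3% to 47.5% of the listed total, and pairs that were not unique 18.1% to 30.3%. Genes passing filterByExpr were scaled with trimmed means and tested in edgeR 4.0.16 (quasi-likelihood, robust, no covariate, R 4.3.3), with Benjamini-Hochberg adjustment over all genes. The fit was tested on simulated data with known changes. That simulation used the same noise for all genes and no library that stood apart, so it does not cover knockout replicate 2. Libraries of a group differed by more than sampling noise (chi-square per degree of freedom 11 to 153).

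The members and lists were chosen with earlier results of these data known. Values in every library are given, by rule, for members that passed in either fit or whose groups did not overlap with 6 libraries. The same holds for the member of each role with the smallest p with 6 libraries. Others, such as Slc2a1, Hk2 and Gapdh, and the further gene Pkm, were named after their values were seen. From the further lists, genes past the threshold in either fit, or else the 2 with the smallest p, were named. Pkm2, Brp44 and Brp44l were read as Pkm, Mpc2 and Mpc1. Paralogue shares used the merged length of all annotated exons of a gene in GENCODE M21 and two-sided exact permutation tests. Alternatives were other size factors and filters, DESeq2 1.42.0, limma 3.58.1 voom, left-out libraries and a replicate block.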

Additional observations from a re-analysis of the deposited data

How the results depend on the processing

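With 6 libraries, 14 genes were called higher and 62 lower over all genes; the cause of each change below was not tested. The lower calls numbered 94 without a filter. DESeq2 called 161 higher and 325 lower, voom with quality weights 110 and 206, and plain voom called 9 higher. Members called lower went from 0 to 1 (Aldoc) in DESeq2, with quality weights, with the block and without knockout replicate 2. The member median of -0.037 was 0.102 with quality weights. Leaving out single libraries gave 0 to 80 genes higher, 0 to 227 lower, 0 members higher, 0 to 1 lower and a median of -0.103 to 0.122. The highest values of each range came without knockout replicate 2.

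With 5 libraries, 80 genes were higher and 227 lower. DESeq2 called 208 and 481, and 2 members higher (Slc2a3 and Hk2). Voom called 148 lower, and quality weights 121 lower and 0 members lower. Leaving out a further library gave 29 to 134 genes higher, 116 to 239 lower, 0 to 1 members higher (Vegfa without knockout replicate 3), 0 to 1 lower and a median of 0.044 to 0.143. Where 1 knockout library remained, it was assumed to vary like the others. The log2 fold change of Vegfa was then 0.62 without knockout replicate 3 and 0.01 without knockout replicate 1.

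The replicate numbers 2 and 3 occur in both groups, but no label ties them to a litter or day. Deviations of same-numbered libraries correlated at 0.24 and -0.15 across genes. The replicate block gave 105 genes higher, 196 lower, 1 member lower and a member median of -0.145; under it Hif3a had an adjusted p = 0.0611.

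The difference in paralogue share, knockout minus wild type in percentage points, ran with single libraries left out from 4.05 to 6.39 for Slc2a3, 5.32 to 8.45 for Hk2, 0.389 to 0.947 for Pfkp, -2.48 to -1.96 for Aldoc and 2.22 to 5.6 for Egln3. It ran from -5.14 to 2.17 for Pfkm, -6.50 to -2.30 for Pfkfb4, -2.62 to 15.4 for Eno2, -2.58 to 0.603 for Ldhb, -4.13 to -1.19 for Epas1 and -1.58 to 1.70 for Bnip3. From raw counts without length the Pfkp difference was 1.95. The members' share of gene counts differed by -0.0425 to 0.0235 percentage points with single libraries left out. Single-gene fold changes kept their side of the threshold in 1045 fits, lost a call in 20 and gained one in 21.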
